A study of Mus musculus with 4 samples.

Results

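Among single cells of mouse lungs carrying small cell lung cancer, 448 of 14411 cells held RNA of the T cell receptor complex together with RNA of receptors that are best known from natural killer (NK) cells. They were chosen by their unique molecular identifier (UMI) counts, each UMI standing for 1 captured RNA molecule. Barcodes with fewer than 500 UMIs, fewer than 300 genes or over 10% of UMIs from mitochondrial genes were left out. A kept cell belonged if Cd3d, Cd3e and Cd3g, the CD3 chains of the T cell receptor complex, summed to at least 2 UMIs, and if Klra1, Klra6, Klra7, Klrc1, Klrc2, Klrb1c and Ncr1 also summed to at least 2. Cells with more than 1 UMI of the B cell gene Cd79a, or with any UMI of Foxp3, the transcription factor of regulatory T cells, did not belong. CD8 was not used, so CD8-positive and CD8-negative cells both belong.

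The cells came from 4 libraries of polyadenylated RNA, made with the 10x Genomics 3′ v2 kit, 1 library for each treatment. Tumour cells had been placed in the lung itself, and mice then received vehicle with isotype IgG (control), the anti-PD-1 antibody clone 29F.1A12 at 200 µg per mouse, the CDK7 inhibitor YKL-5-124 at 10 mg/kg, or both (the combination). The levels of the 4 libraries are given in that order below, called library order. Each lung was perfused, digested whole and sorted for live cells on DAPI, so tumour, immune and stromal cells were all included. Neither the strain, age and genotype of the mice nor how many mice a library holds is stated in the labels.

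NK cells and T cells share much of their killing machinery, but they read their targets differently. T cells use a rearranged receptor that signals through CD3. NK cells use inherited receptors, among them the Ly49 lectins (Klra genes), the NKG2 proteins that pair with CD94 (Klrc genes with Klrd1), NK1.1 (Klrb1c) and NKp46 (Ncr1). Some T cells switch on part of this set, among them memory-like CD8 T cells that respond to IL-15, NKT cells and γδ T cells. Most inhibitory Ly49 receptors bind MHC class I, and the activating receptors signal through adaptor proteins such as DAP12 (Tyrobp), DAP10 (Hcst) and FcRγ (Fcer1g).

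In the mouse genome (GENCODE M21, GRCm38) 6 of the 7 receptor genes lie together on chromosome 6, from Klrb1c, which starts at position 128778485, through Klrc2 and Klrc1 to Klra6, Klra7 and Klra1, which ends at position 130386874. Ncr1 lies on chromosome 7 at positions 4337724 to 4345164, and the 3 CD3 genes lie next to each other on chromosome 9 between positions 44969572 and 45009627. The Klra genes are related copies of each other, and the counting behind the matrices could split or drop any reads they share. The level of any 1 Klra gene is therefore uncertain.

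The libraries held 17329001 to 22950622 UMIs in all, and 2736 to 4152 cells were kept in each, with a median of 1939 to 2239 UMIs per cell. Barcode sequences were not always private to a library: 658 were kept as cells in 2 or more libraries, among them 6 of the 448 T cells with NK receptors. The cells were compared with 2856 other T cells, which met the same CD3, Cd79a and Foxp3 limits but had fewer than 2 receptor UMIs, and with 1141 NK cells, which had no CD3 UMI, at least 2 receptor UMIs and at least 1 UMI of Ncr1 or Klrb1c. T cells with NK receptors were the deepest of the 3, at a median of 2574 UMIs against 2169 in other T cells and 1703 in NK cells.

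T cells with NK receptors made up about the same share of T cells in each library. They were 109 of 860 T cells in the control library, or 12.7% (95% exact binomial interval 10.5% to 15.1%). The share was 14.2% with anti-PD-1 (85 of 599 cells, 11.5% to 17.2%), 12.6% with YKL-5-124 (93 of 738, 10.3% to 15.2%) and 14.5% with the combination (161 of 1107, 12.5% to 16.8%). All 4 intervals overlapped, and they cover counting error only. Relative to control the ratio of shares was 1.12 (0.833 to 1.5), 0.994 (0.746 to 1.32) and 1.15 (0.894 to 1.48). Each treatment has 1 library, and no treatment effect was tested. When every cell was thinned to 1000 UMIs and the rule applied again, the shares were lower, at 7.34%, 9.80%, 5.64% and 6.52% in library order, and 26, 26, 22 and 40 T cells under that depth were left out. As a share of all kept cells, tumour cells included, the values were 3.13%, 3.11%, 2.24% and 3.98%, with the YKL-5-124 library at 0.715 of control (0.537 to 0.952).

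**Figure D1:**
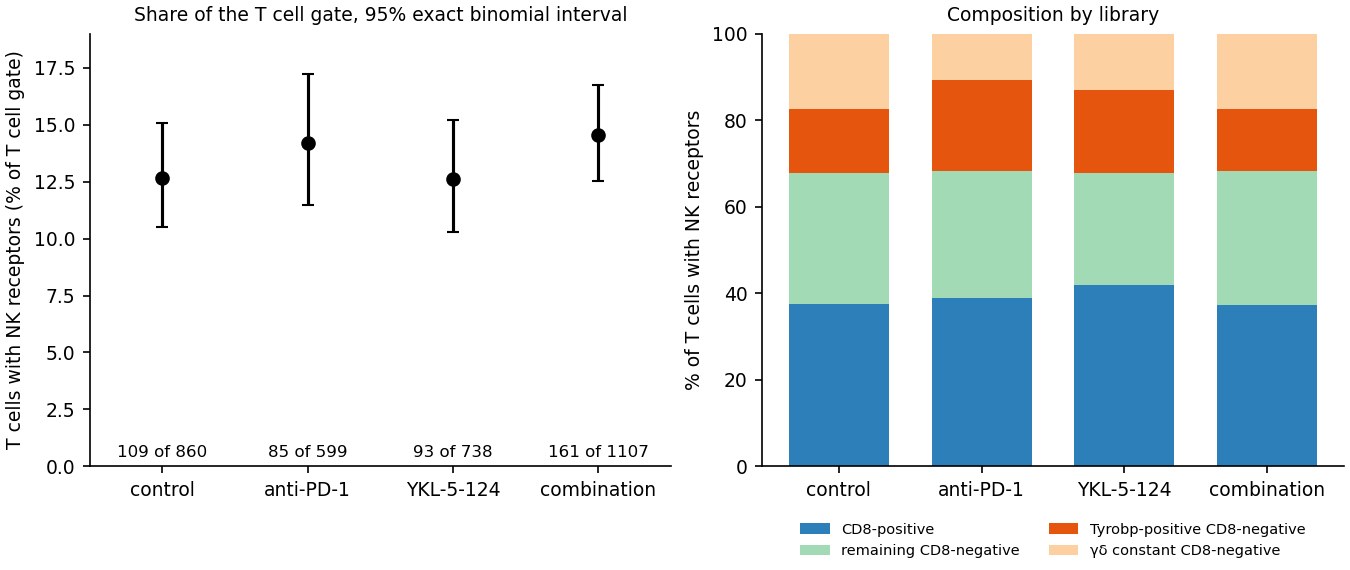
Left, the share of the T cell gate that carried NK receptors in each library, in percent, with 95% exact binomial intervals and the cell counts; right, how these cells divide by CD8, Tyrobp and γδ constant genes, in percent of the cells of each library. The shares lie between 12.6% and 14.5% with overlapping intervals, and CD8-positive cells make up between 37.3% and 41.9% in every library.

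The rule's own genes describe the cells and are not tested. Of the 448 cells, 60.7% held a UMI of Klrc1, 52.5% of Klrc2, 38.2% of Klrb1c, 35.5% of Klra7, 24.3% of Klra1, 16.7% of Ncr1 and 14.5% of Klra6. In NK cells the order was different, with Klrb1c in 91.2%, Ncr1 in 86.1% and Klrc1 in 36.7%. NK cells had been chosen for at least 1 UMI of Ncr1 or Klrb1c, so that order in part describes the choice. The 2 NKG2 genes often came together: of the 272 cells with Klrc1, 151 also held Klrc2 (55.5%). The Ly49 genes overlapped too, with Klra7 in 47 of the 65 cells with Klra6 (72.3%) and in 61 of the 109 cells with Klra1 (56.0%). Most cells held few kinds of receptor: 107 cells (23.9%) held 1 of the 7 genes, 170 (37.9%) held 2, and 79 cells held 4 or more.

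The receptor threshold of 2 UMIs cut a graded distribution. In the T cell gate 2697 cells had 0 receptor UMIs, 159 had 1, 114 had 2 and 334 had 3 or more. The level of Ccl5, a chemokine made by effector T cells, was 1716 CPM (UMIs of the gene in 1000000 UMIs of the population) in the cells with 0, 6992 CPM in those with 1 just outside, 11823 CPM in those with 2 just inside and 12697 CPM in those with 3 or more. Klrk1, encoding the activating receptor NKG2D, ran at 36.1, 289, 410 and 533 CPM over the same steps. Ly6c2, a surface protein of memory CD8 cells, ran at 233, 511, 790 and 821 CPM. In all 3 genes the cells just outside lay between the bulk of T cells and the cells inside. The adaptor genes did not follow this order. Over the same steps Tyrobp ran at 408, 237, 251 and 563 CPM, and Fcer1g at 393, 355, 420 and 762 CPM. Depth rose as well, at medians of 2162, 2382, 2414 and 2600 UMIs. Some B cells also met the limits: of 2483 cells with at least 2 Cd79a UMIs, 25 reached 2 receptor UMIs (1.01%, at a median of 1632 UMIs), against 13.6% of the T cell gate (median 2210 UMIs), and 9.67% reached the CD3 limit. The source of those UMIs was not tested.

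RNA of a T cell receptor constant gene was found in most of the cells, but less of it near the CD3 limit. Trac, the constant region of the αβ receptor's α chain, was found in 331 of the 448 cells (73.9%), against 79.0% of other T cells and 5.26% of NK cells. At least 2 UMIs of the γδ constant genes Trdc, Tcrg-C1, Tcrg-C2 and Tcrg-C4 were found in 113 cells (25.2%), against 5.85% of other T cells and 1.93% of NK cells. Both were found in 50 cells (11.2%), and 54 cells (12.1%) had neither, against 18.1% of other T cells and 92.8% of NK cells. The 30 cells with a CD3 sum of 2, just inside that limit, held Trac at 363 CPM, Tyrobp at 1677 CPM and Fcer1g at 1368 CPM. The 56 cells just outside, which met the receptor limit with a CD3 sum of 1, held Trac at 174 CPM, Tyrobp at 2964 CPM and Fcer1g at 3487 CPM. NK cells held 20.6 to 32.5 CPM of Trac over the 4 libraries, 3080 to 3574 CPM of Tyrobp and 3381 to 3704 CPM of Fcer1g. The cells at this edge thus held less Trac and more of both adaptors than the 448 cells in any library. Markers of 2 other kinds of T cell were rare. Cd4 was found in 15 cells (3.35%), against 16.4% of other T cells. Zbtb16, the factor PLZF of NKT cells, was found in 6 cells (1.34%), against 2.42% of other T cells, and the invariant joining segment Traj18 had 0 UMIs here and in both other populations. A joining segment is short and lies far from the 3′ end that the kit reads, so a count of 0 limits UMIs and not receptors.

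Most of the measured cytotoxic and NK receptor genes were higher in these cells than in other T cells, and many other genes differed as well. In a test across the 4 libraries (edgeR's quasi-likelihood test with the library as a block), 396 of 7743 genes were higher in T cells with NK receptors (5.11%) and 675 were lower (8.72%) at an adjusted p under 0.05. The median log2 difference over all genes was -0.05. The genes were measured in the same cells that the receptors and CD3 had chosen, and the libraries are 4 treatments with unstated numbers of mice. The p-values therefore measure the spread between these 4 libraries, and they do not show that the rule finds a separate cell type. The rule's own genes were left out of the test.

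Killing genes were mostly higher. Of 16 cytotoxic genes measured, 13 were higher and 1 was lower, with a median log2 difference of 2.04. Gzma, encoding the serine protease granzyme A, stood at 4337, 3680, 1573 and 2003 CPM in library order, and at 111 to 276 CPM in other T cells. The groups did not overlap, and the log2 difference was 3.83 ± 0.12 (SE, 4 libraries, adjusted p = 1.8e-13). Gzmb, encoding granzyme B, stood at 1542, 699, 591 and 450 CPM against 61.0 to 79.9 CPM, a log2 difference of 3.37 ± 0.20 (adjusted p = 1.0e-09). Prf1, the pore-forming perforin, ran from 104 to 400 CPM against 25.6 to 47.0 CPM, and the granzyme inhibitors Serpinb9 and Serpinb6b, which protect killer cells from their own granzymes, were higher by 2.79 ± 0.14 and 2.65 ± 0.17 on the log2 scale. Lamp1, a lysosome membrane protein, was the gene of this list that was lower.

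NK receptor genes that the rule had not used were mostly higher too, and the median difference was larger than for the cytotoxic genes. Of 15 measured, 13 were higher and none was lower, with a median log2 difference of 3.21. Part of this list could share reads with the rule's Klra genes, so it is not taken as a separate line of evidence. Klrk1 stood at 640, 507, 406 and 486 CPM against 43.4 to 65.8 CPM, with no overlap (log2 difference 3.31 ± 0.13, adjusted p = 2.4e-12). Klre1, a lectin-like receptor of NK cells, stood at 340, 393, 225 and 282 CPM against 4.4 to 14.3 CPM (4.88 ± 0.17). Klrd1, encoding the CD94 partner of the NKG2 proteins, was at 455 to 886 CPM against 89.6 to 133 CPM (2.40 ± 0.14), and Cd160, a receptor for the herpesvirus entry mediator and for MHC class I, was higher by 2.67 ± 0.16. Klrg1, a mark of terminally differentiated effector cells, did not pass (27.0, 102, 9.9 and 15.1 CPM against 7.0 to 28.1, adjusted p = 0.34).

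Several secreted factors and transcription factors were higher as well. Of 7 cytokine and chemokine genes measured, Xcl1, Ccl5 and Ifng were higher and none was lower. Ccl5 was the most abundant, at 13842, 17547, 10485 and 10937 CPM against 1471 to 3254 CPM (2.64 ± 0.09). Xcl1, the chemokine that attracts cross-presenting dendritic cells, held between 334 and 431 CPM in all 4 libraries, while it ran from 18.7 to 141 CPM in other T cells (2.73 ± 0.29). Ifng, encoding interferon γ, stood at 111, 57.2, 69.3 and 40.3 CPM against 10.2 to 12.7 CPM (2.54 ± 0.25). Of 18 transcription factors of effector lymphocytes, 8 were higher and 1 was lower. Both T-box factors of killer cells were among the 8, Eomes at 17.3 to 45 CPM against 1.0 to 6.9 CPM (2.68 ± 0.36) and Tbx21, encoding T-bet, at 38.7 to 69.3 CPM against 11.3 to 13.8 CPM (2.17 ± 0.24). Id3, a factor of naive and memory T cells, was the one lower, by 1.95 ± 0.26.

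Genes of the IL-15-responsive memory state were also higher, and those of naive T cells lower. Of 17 genes of virtual memory CD8 T cells, which reach a memory state without meeting their antigen, 11 were higher and 3 lower (median log2 difference 1.05). Il2rb, the receptor chain shared by IL-2 and IL-15, stood at 477 to 545 CPM in the 4 libraries against 102 to 147 CPM (1.98 ± 0.12), and Ly6c2 at 675 to 1129 CPM against 206 to 271 CPM (1.79 ± 0.11). Ikzf2, encoding Helios, was higher by 1.17 ± 0.18 although the libraries overlapped, at 164 to 277 CPM against 56.4 to 178 CPM. Of 14 genes of naive and central memory T cells, 8 were lower and 1, Cd27, was higher. Ccr7, the receptor that brings T cells into lymph nodes, stood at 194, 303, 173 and 202 CPM against 540 to 818 CPM (-1.64 ± 0.12), and Lef1, a factor of naive T cells, at 139 to 164 CPM against 222 to 373 CPM (-0.95 ± 0.14). Of 16 immediate early and heat shock genes, 6 were lower, among them Fos at 129 to 215 CPM against 432 to 555 CPM (-1.43 ± 0.11).

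**Figure D2:**
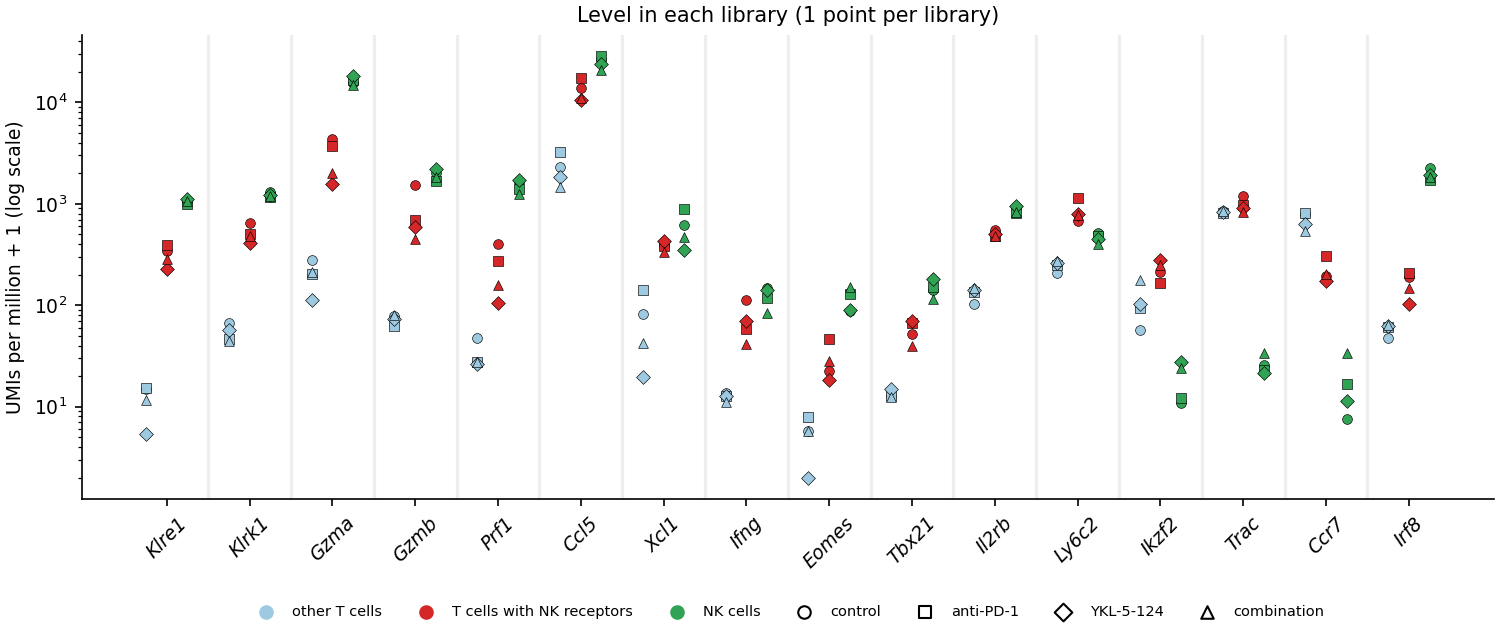
Level of 16 genes in CPM plus 1, on a log axis, in other T cells, T cells with NK receptors and NK cells, with 1 point per library and its shape giving the treatment. T cells with NK receptors lie between the other 2 populations for Klre1, Klrk1, Gzma, Ccl5 and Irf8, near NK cells for Xcl1, near other T cells for Trac, and above both for Ly6c2.

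T cell receptor genes differed less. Of 18 T lineage genes, 4 were higher and 2 lower. Trac did not pass, at 1188, 981, 900.5 and 830 CPM against 806 to 856 CPM (0.24 ± 0.09, adjusted p = 0.10). Its direction was not stable: in cells of at most 5000 UMIs it was lower (-0.37, adjusted p = 0.0050), and in cells of at least 1500 UMIs higher (0.33, adjusted p = 0.031). Of 6 γδ genes measured, 3 were higher: Trdc at 151 to 238 CPM against 52.1 to 85.7 CPM (1.49 ± 0.17), Tcrg-C4 and Tcrg-C2. Pdcd1, encoding PD-1, the target of the antibody in 2 of the groups, did not pass (184, 36.8, 71.7 and 99.2 CPM against 37.6 to 101 CPM, adjusted p = 0.14), nor did the proliferation gene Mki67 (0.16 ± 0.20, adjusted p = 0.67) or Cdk7, the target of YKL-5-124 (10.8 to 20.2 CPM, adjusted p = 0.93).

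Markers of other cell types moved with the comparison, and some of the 675 lower genes were among them. The 10 lowest genes were Cox6a2, Chga, Cited1, Cd74, Wfdc2, H2-Eb1, Ccl17, H2-Aa, Ncam1 and H2-Ab1, which include MHC class II genes and neuroendocrine genes. Of the barcodes counted as other T cells, 275 (9.63%) took more than 5 of every 1000 UMIs from 1 of 3 marker lists, of B cells, myeloid cells or tumour cells, against 10 (2.23%) of the T cells with NK receptors. The summed B cell list stood at 3997 to 5598 CPM in other T cells and at 275 to 1677 CPM in T cells with NK receptors, with 1 of its 12 genes (Fcmr) at 0. The myeloid list stood at 2342 to 5979 against 1202 to 2533 CPM with no gene at 0, and the tumour list at 880 to 989 against 37.1 to 284 CPM with Stmn2 at 0. Without those barcodes 259 of 6776 genes were higher (3.82%) and 325 lower (4.8%). Cd74 and H2-Aa, which are on the B cell list used to find them, were then not called (log2 differences -0.38 and -0.09, adjusted p = 0.13 and 0.92), whereas Chga, which is on the tumour list, stayed lower (-3.61). The part of these barcodes in the remaining lower genes was not tested.

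Without those barcodes 13 of 16 cytotoxic genes were again higher, as were 11 of 14 NK receptor genes and 10 of 17 virtual memory genes, while 11 of 14 naive genes were lower. Other lists moved. Among T lineage genes 1 was then higher and 6 lower of 18, among interferon-stimulated genes 1 was higher and 3 lower of 24 in place of 5 and 2 of 26, and among checkpoint genes 2 were higher of 12 in place of 5 of 14. In G2 and mitosis genes the count went from 4 of 27 to 7 of 27 higher. The adaptor genes moved furthest: Tyrobp was higher by 0.50 ± 0.16 with all barcodes (adjusted p = 0.048, and not called without the control or the anti-PD-1 library) and by 3.83 without the mixed ones, and Fcer1g by 0.97 ± 0.16 and 3.99.

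Against NK cells the same cells had more RNA of most T lineage genes and less of many killing genes. Of 5598 genes tested, 522 were higher in T cells with NK receptors (9.32%) and 468 lower (8.36%), with a median log2 difference of -0.04 over all genes. NK cells had been chosen for a CD3 count of 0, so the T lineage genes describe that choice. Of 18 such genes, 16 were higher, led by Cd5, a brake on T cell receptor signalling (40.9 to 94.1 CPM against 0 to 1.4 CPM), Cd6 and Themis. Trac stood at 830 to 1188 CPM against 20.6 to 32.5 CPM (5.34 ± 0.16, adjusted p = 6.3e-13).

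All 18 NK cell genes measured outside the rule were lower. NK cells had been chosen for Ncr1 or Klrb1c together with a CD3 count of 0, so the 18 genes describe that choice as well. Irf8, a transcription factor of mature NK cells and myeloid cells, stood at 189, 209, 101 and 146 CPM against 1725 to 2277 CPM (-3.53 ± 0.14). Gzma stood far below its NK cell level of 14762 to 18113 CPM (-2.50 ± 0.18), Ccl5 below 20767 to 28804 CPM (-0.85 ± 0.06), and Eomes below 87.4 to 150 CPM (-2.01 ± 0.23). Tyrobp at 410 to 712 CPM against 3080 to 3574 CPM and Fcer1g at 570 to 1026 against 3381 to 3704 CPM were lower by 2.60 ± 0.10 and 2.23 ± 0.11. Of 17 NK receptor genes 12 were lower, with the activating Ly49H gene Klra8 lowest, at 18.9, 69.5, 7.4 and 52.1 CPM against 841 to 1287 CPM (-4.73 ± 0.23). Xcl1 did not pass (-0.43 ± 0.17, adjusted p = 0.10), although it did without the barcodes rich in other RNA (-0.52, adjusted p = 0.035).

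Some genes were higher in T cells with NK receptors than in NK cells and were not T cell receptor genes. Cxcr6, a receptor that holds lymphocytes in lung and liver, stood at 362, 180, 151 and 156 CPM against 0 to 9.5 CPM (5.46 ± 0.38). Pdcd1 (36.8 to 184 CPM against 0 to 4.9) and Gzmk (65.4 to 96.5 against 3.3 to 15.8, 3.28 ± 0.32) were higher with no overlap. So were Ly6c2 (0.96 ± 0.12), Il7r, the receptor chain for the survival factor IL-7 (401 to 543 CPM against 16.5 to 31.6), and Ikzf2 (3.77 ± 0.20). Of 22 interferon-stimulated genes 15 were higher and none lower, among them Isg15 at 66.8 to 203 CPM against 28.8 to 54.2 CPM (1.81 ± 0.20). Of 25 G2 and mitosis genes 15 were higher and none lower, although with anti-PD-1 Ccnb1, encoding cyclin B1, was at 8.2 CPM and overlapped with NK cells (15.8 to 30.9 CPM). Few cells carried this signal: Mki67 was found in 32 of the 448 cells (7.14%) and in 42 of 1141 NK cells (3.68%). Its call was lost when the control, the YKL-5-124 or the combination library was left out. Without the barcodes rich in RNA of another type 466 of 5275 genes were higher (8.83%) and 505 lower (9.57%), with 11 of 20 interferon-stimulated and 17 of 22 mitosis genes higher.

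**Figure D3:**
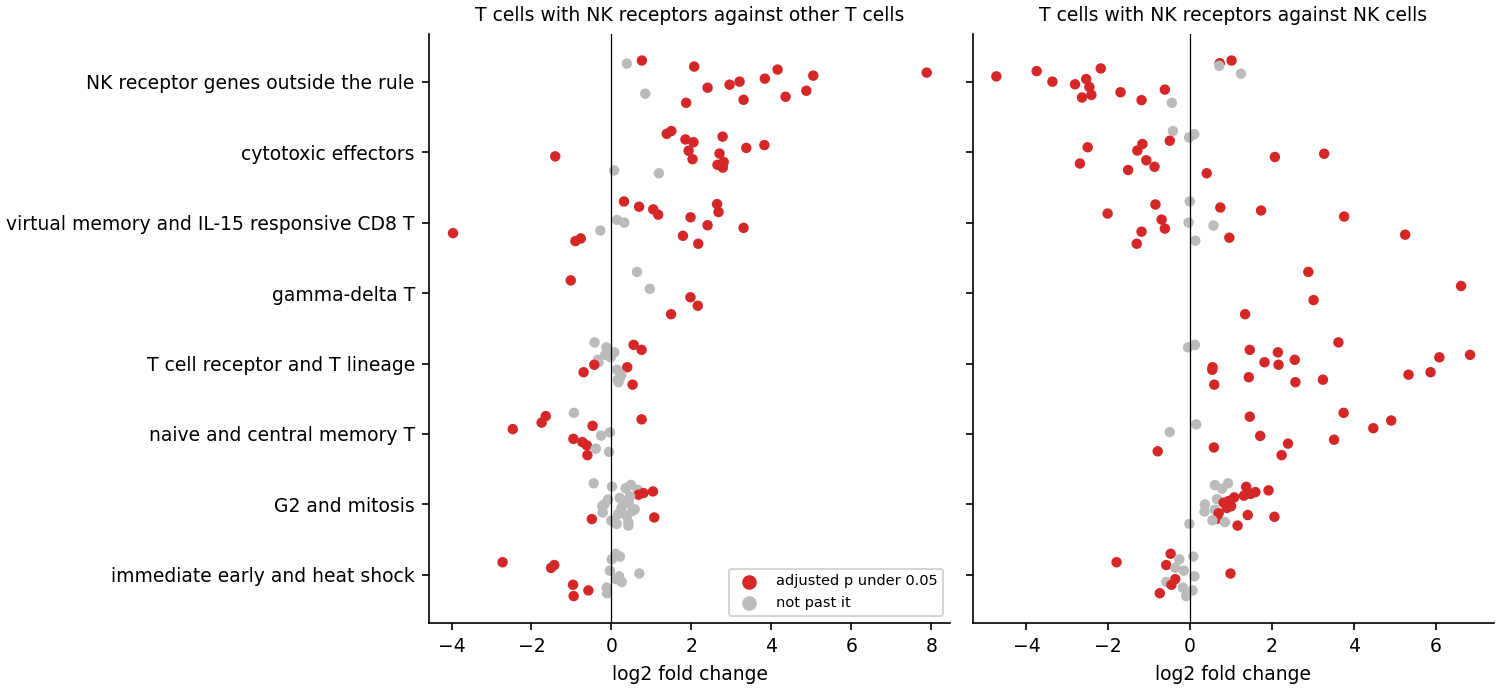
Log2 fold change of each measured gene of 8 lists in T cells with NK receptors, against other T cells on the left and against NK cells on the right, with genes past an adjusted p of 0.05 in red and the others in grey. Cytotoxic genes lie mostly to the right of 0 against other T cells (13 of 16 higher) and to the left against NK cells (8 of 14 lower), and T lineage genes lie near 0 on the left and to the right of 0 on the right (16 of 18 higher).

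CD8-positive cells, with at least 1 UMI of Cd8a or Cd8b1, were 173 of the 448 (38.6%), at 37.6%, 38.8%, 41.9% and 37.3% of the cells in the 4 libraries. Compared with the 1166 other CD8-positive T cells they also had more RNA of killing genes and less of naive genes. Of 5319 genes tested, 71 were higher (1.33%) and 165 lower (3.1%), with a median log2 difference of -0.07. Of 14 cytotoxic genes 12 were higher and none lower. Gzma stood at 6962, 1541, 1743 and 1786 CPM against 153 to 466 CPM (2.79 ± 0.28, adjusted p = 2.0e-04), and Gzmk, a granzyme of memory CD8 cells, at 154, 86.5, 156 and 132 CPM against 17.8 to 85.9 CPM (1.86 ± 0.38, adjusted p = 0.013). Klrk1 (2.41 ± 0.19), Klre1 (4.17 ± 0.28) and Il2rb (1.32 ± 0.20) were higher as well, and so was Fasl, encoding the death ligand of the receptor Fas (100 to 216 CPM against 32.0 to 50.02).

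Of 13 naive and central memory genes 8 were lower in the CD8-positive cells with NK receptors and Cd27 was higher. Ccr7 stood at 331, 459, 192 and 321 CPM against 665 to 976 CPM (-1.54 ± 0.17), and Tcf7, encoding the stem-like T cell factor TCF1, at 77.6 to 130 CPM against 166 to 195 CPM (-1.06 ± 0.18). Of 24 G2 and mitosis genes 6 were higher, led by Plk1, a mitotic kinase (49.6, 0, 144 and 67.5 CPM against 6.4 to 26 CPM, 1.91 ± 0.36), which had 0 UMIs with anti-PD-1. Without barcodes rich in RNA of another cell type 105 of 4814 genes were higher (2.18%) and 212 lower (4.4%), the naive count was 12 of 13 lower and the mitosis count 17 of 23 higher. Tnfrsf9, the activation marker 4-1BB, was called (2.13 ± 0.43, adjusted p = 0.013), but most of its signal was in the control library, at 480 CPM against 52.1 to 95.2 CPM in the others. In that library 3 CD8-positive cells held 39.8% of the Tnfrsf9 UMIs and 35.6% of the Gzma UMIs of all T cells with NK receptors. Without the YKL-5-124 library 105 genes passed in place of 236, and Gzmk and Tnfrsf9 were not among them.

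Within the cells, CD8-positive and CD8-negative ones differed in few genes: of 2532 tested, 10 were higher in CD8-positive cells (0.395%) and 23 lower (0.908%). Higher were Lag3, an inhibitory receptor that binds MHC class II (799, 104, 160 and 145 CPM against 3.3 to 51.7 CPM, 3.66 ± 0.48, adjusted p = 0.0027), Gzmk (86.5 to 156 against 0 to 46.5 CPM, 3.17 ± 0.52), Pdcd1 (60.6 to 320 against 6.5 to 52.9 CPM, 2.37 ± 0.32) and Ccr7 (192 to 459 against 63.5 to 163 CPM, 1.55 ± 0.28). Lower were Tyrobp (115 to 208 against 693 to 1163 CPM, -2.59 ± 0.17), Fcer1g (162 to 320 against 810 to 1667 CPM, -2.31 ± 0.24), Trdc (48.1 to 77.6 against 233 to 408 CPM, -2.40 ± 0.25) and Ikzf2 (60.6 to 159 against 256 to 472 CPM, -1.34 ± 0.22). Gzma and Xcl1 did not pass (0.06 ± 0.45 and -0.04 ± 0.26, adjusted p = 0.99 and 0.98), but Gzma was lower in cells of at most 5000 UMIs (-0.61, adjusted p = 0.042) and higher in cells with no Ncr1 UMI (1.68, adjusted p = 0.040). This comparison rests on 33 to 101 cells a library: without the anti-PD-1 library 14 genes passed, and Ccr7 and Ikzf2 were not among them. Without the combination library 6 passed, and Lag3, Gzmk, Ccr7 and Ikzf2 were not among them, and without the control library Gzmk and Ccr7 were not called. Tyrobp, Fcer1g, Trdc and Pdcd1 passed with any 1 library left out.

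Some of the lower genes were those of macrophages, Lyz2, Ms4a6c and Ccl9 among them. The myeloid list stood at 2032 to 4745 CPM in CD8-negative cells and 225 to 1162 CPM in CD8-positive ones, where Fcer1a and Csf3r were at 0, and 8 CD8-negative and 2 CD8-positive barcodes were rich in RNA of another type. Without these 10 barcodes 9 genes were higher (0.367%) and 13 lower (0.53%) of 2453. Tyrobp (-2.66), Fcer1g (-2.28), Trdc (-2.51) and Lag3 (4.72) were still called, and Ly6c2 and Ifitm3 were not (adjusted p = 0.073 and 0.11).

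The 275 CD8-negative cells were mixed, and were shallower than the CD8-positive ones (median 2212 against 3392 UMIs). They were divided after their values had been seen, so what follows is a description of 3 groups with no test. The first had at least 2 Tyrobp UMIs (75 cells), the second did not but had at least 2 UMIs of the γδ constant genes (68 cells), and the third had neither (132 cells). These groups made up 16.7%, 15.2% and 29.5% of all 448 cells.

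With the 4 libraries summed, the Tyrobp-positive cells held Klra4 at 305 CPM, Klra8 at 151 CPM, Ncr1 at 455 CPM, Irf8 at 473 CPM and Gzma at 5426 CPM, the highest levels of the 3 groups. NK cells held 962, 1036, 1030, 1942 and 16158 CPM of the same genes. Other NK receptor genes were not highest there: Klrc1 at 337 CPM and Klrc2 at 240 CPM were below the γδ constant group (544 and 363 CPM), and Klra1 at 251 CPM and Klra6 at 78.8 CPM were below the third group. Trac was lower in them than in CD8-positive cells, at 530 against 1169 CPM, and 18 of the 75 (24.0%) had neither Trac nor 2 UMIs of γδ constant genes. Their doublet scores were also the highest: 16% were among the top-scoring barcodes, against 7.51% of CD8-positive cells, 1.47% of the second group and 0.758% of the third. Their median UMI count was 2842, against 2122 and 2174 in the other 2 CD8-negative groups. Over all 448 cells, 6.03% were among the top-scoring barcodes, against 2.80% of other T cells and 1.75% of NK cells. CD8-positive cells with NK receptors, at 7.51%, stood above other CD8-positive T cells, at 2.74%. Whether a T cell and an NK cell shared some of the 448 barcodes was not tested.

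The γδ constant group held Trdc at 1126 CPM, Tcrg-C1 at 236 CPM and Tcrg-C4 at 280 CPM, which describe how it was chosen. Tyrobp, which the division had limited, was at 33.0 CPM. Trdc was found in 44 of the 68 cells (64.7%) and Trac in 22 (32.4%), against Trac in 81.8% of the third group. The constant genes of the αβ receptor's β chain differed less. Trbc2 was found in 86.8% and Trbc1 in 52.9% of the 68 cells, against 93.9% and 55.3% of the third group. Klra4 and Klra8 had 0 UMIs in these 68 cells, which allows up to 16.5 CPM, while Klrc1 was at 544 CPM, the highest of the 4 groups. Il17a, the cytokine of IL-17-type γδ T cells, came from 2 cells of the control library. Sox13, a factor of that same kind, had 0 UMIs in all 448 cells.

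The third group, the largest, held Trac at 1028 CPM and Trdc, which the division had limited, at 6.4 CPM. It had the highest levels of Ikzf2 (496 CPM), Klra1 (348 CPM), Klra6 (142 CPM) and Klrk1 (844 CPM) of the 4 groups, with Ly6c2 at 1166 CPM. Trav11 was found in 8 of the 132 cells (6.06%). Cd4 was at 9.7 CPM, and CD8 was absent by the division. Most of these cells thus held an αβ receptor constant gene with neither co-receptor detected. Detection depended on depth, and this group had a median of 2174 UMIs against 3392 in CD8-positive cells. With CD8-positive cells thinned as for the shares, Cd8a was found in 41.0% and Cd8b1 in 59.0% of them. Cd4 was found in only 16.4% of other T cells. Whether co-receptor RNA was missed in this group was not tested. Fcer1g stood at 606 CPM although Tyrobp, which the division had limited, was at 64.4 CPM. Klra4 and Klra8 were again at 0, with up to 9.67 CPM allowed, and Gzma was the lowest of the 4 groups at 712 CPM. The CD8-positive cells differed from all 3 by Gzmk (138 CPM against 7.2 to 22.6), Lag3 (285 against 11.0 to 35.8) and Pdcd1 (165 against 21.5 to 54.9), and held least Klra1 (42.7 CPM).

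**Figure D4:**
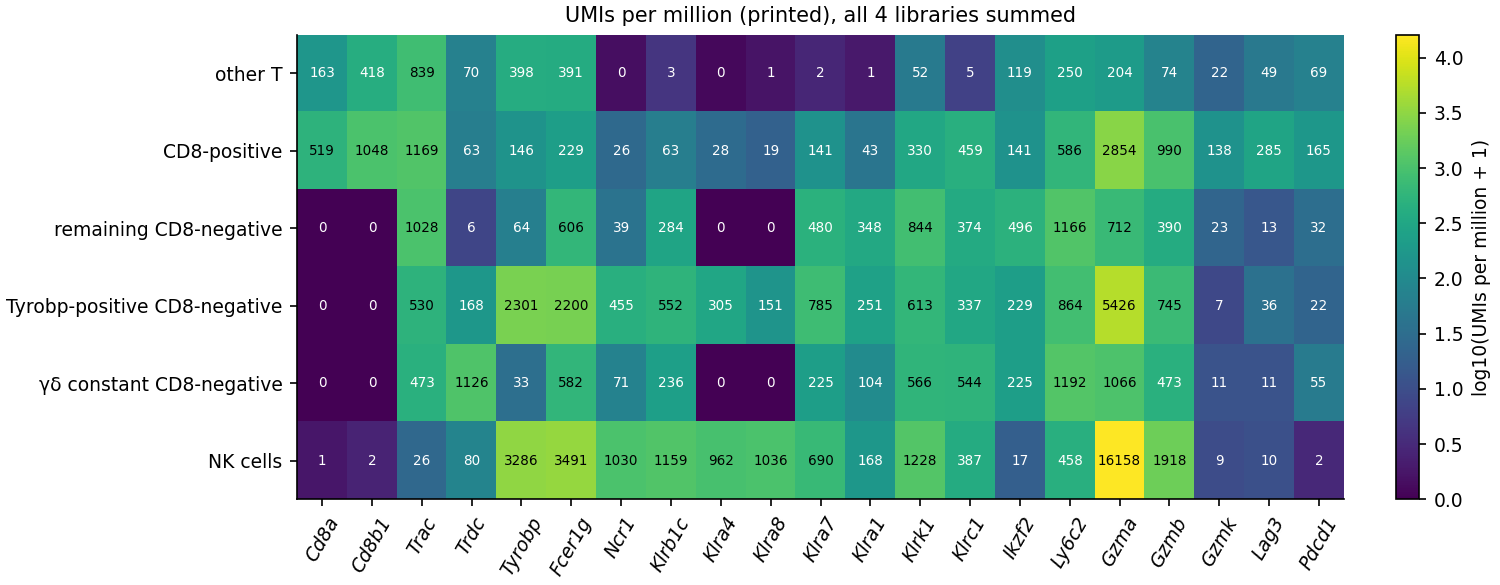
Level of 21 genes, in CPM over the 4 libraries summed, printed in each square and coloured on a log10 scale, for other T cells, the 4 groups of T cells with NK receptors and NK cells. Klra4 and Klra8 are at 0 in 2 of the CD8-negative groups and reach 305 and 151 in the Tyrobp-positive one, and Ikzf2 is highest, at 496, in the remaining CD8-negative cells.

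Between treatments, levels in the 448 cells are compared by size alone, since each treatment has 1 library of 85 to 161 of these cells. A ratio past 1.5-fold after adding 10 CPM counts as higher or lower here, among 6935 genes with at least 10 CPM on average. By that rule 759 genes were higher (10.9%) and 1068 lower (15.4%) with anti-PD-1 than in control, 883 (12.7%) and 755 (10.9%) with YKL-5-124, and 681 (9.82%) and 514 (7.41%) with the combination. All 3 treated libraries are set against the same control library. Intervals below are for counting error only, and the log2 ratios are on the scale with 10 CPM added.

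The control library stood above the 3 others in checkpoint and effector genes, and part of that came from 3 cells. Lag3 stood at 405, 57.2, 119 and 73.9 CPM in library order (ratios to control 0.141, 0.293 and 0.183, with the widest interval 0.207 to 0.408). Tnfrsf9 ran at 251, 53.2, 76.7 and 72.3 CPM and Pdcd1 at 184, 36.8, 71.7 and 99.2 CPM in the same order. Of 13 checkpoint genes, 7, 7 and 8 were lower and 0, 1 and 1 higher in the 3 treated libraries. The difference lay in CD8-positive cells for Tnfrsf9, with log2 ratios of -2.22, -2.98 and -2.43 there and -0.71, 1.60 and 0.82 in CD8-negative cells. Much of it rested on few cells: 3 CD8-positive control cells, described below, held 39.8% of the control library's Tnfrsf9 UMIs in T cells with NK receptors. In other T cells the log2 ratios were 0.94, 0.00 and 0.81 for Lag3, 0.84, 0.48 and 0.88 for Tnfrsf9, and 0.33, 0.51 and 1.23 for Pdcd1, none of them below 0. Among other CD8-positive T cells, however, Tnfrsf9 was at 29.7 CPM in control and 13.0 CPM with YKL-5-124, in the same direction, and at 43.6 and 37.0 CPM with anti-PD-1 and the combination. The chemokine genes Ccl3 and Ccl4, whose products draw T cells and monocytes, were at 856 and 1474 CPM in control and at no more than 32.7 and 249 CPM in any treated library. Cxcr6 stood at 362 CPM in control and at 151 to 180 CPM in the others.

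In the control library 3 CD8-positive cells with at least 3 UMIs of Gzmc, a granzyme of strongly activated killer cells, were very deep (median 11623 UMIs). They held 97.9% of the library's Gzmc UMIs in these cells, 78.5% of Gzmb, 44.8% of Ccl3, 34.1% of Ccl4, 35.6% of Gzma and 25.3% of Lag3. Their shares of Tnfrsf9 and Prf1 were 39.8% and 39.2%. In the YKL-5-124 library 2 of the 93 cells, both CD8-negative, had as much Gzmc and held 93.8% of its Gzmc UMIs and 7.95% of its Gzmb UMIs. Gzmb ran at 1542 CPM in control and 699, 591 and 450 CPM in the treated libraries, with log2 ratios of -1.13, -1.37 and -1.75. Without these 5 cells the ratios were 0.92, 0.59 and 0.29, so the direction turned in all 3. Lag3 kept its direction (-2.35, -1.41 and -2.03), as did Ccl3 (-3.63, -4.91 and -4.14) and Pdcd1 (-2.01, -1.18 and -0.79). Areg, encoding the growth factor amphiregulin, and Spp1, encoding osteopontin, were also among the lowest genes, but came from only 6 and 10 control cells.

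In Gzma and Prf1 the treated libraries did not stand together. Gzma stood at 4337, 3680, 1573 and 2003 CPM in library order. Its log2 ratios were -0.24, -1.46 and -1.11 with all cells and 0.26, -0.93 and -0.62 without the Gzmc-rich ones, so its direction turned with anti-PD-1 and stayed below 0 in the 2 libraries with YKL-5-124. Prf1 went from -0.55, -1.85 and -1.30 to 0.01, -1.26 and -0.74. By CD8, anti-PD-1 gave Gzma log2 ratios of -2.17 in CD8-positive cells and 1.62 in CD8-negative ones. Of 19 cytotoxic genes, 6, 10 and 8 were lower and 1, 0 and 0 higher in the 3 treated libraries.

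**Figure D5:**
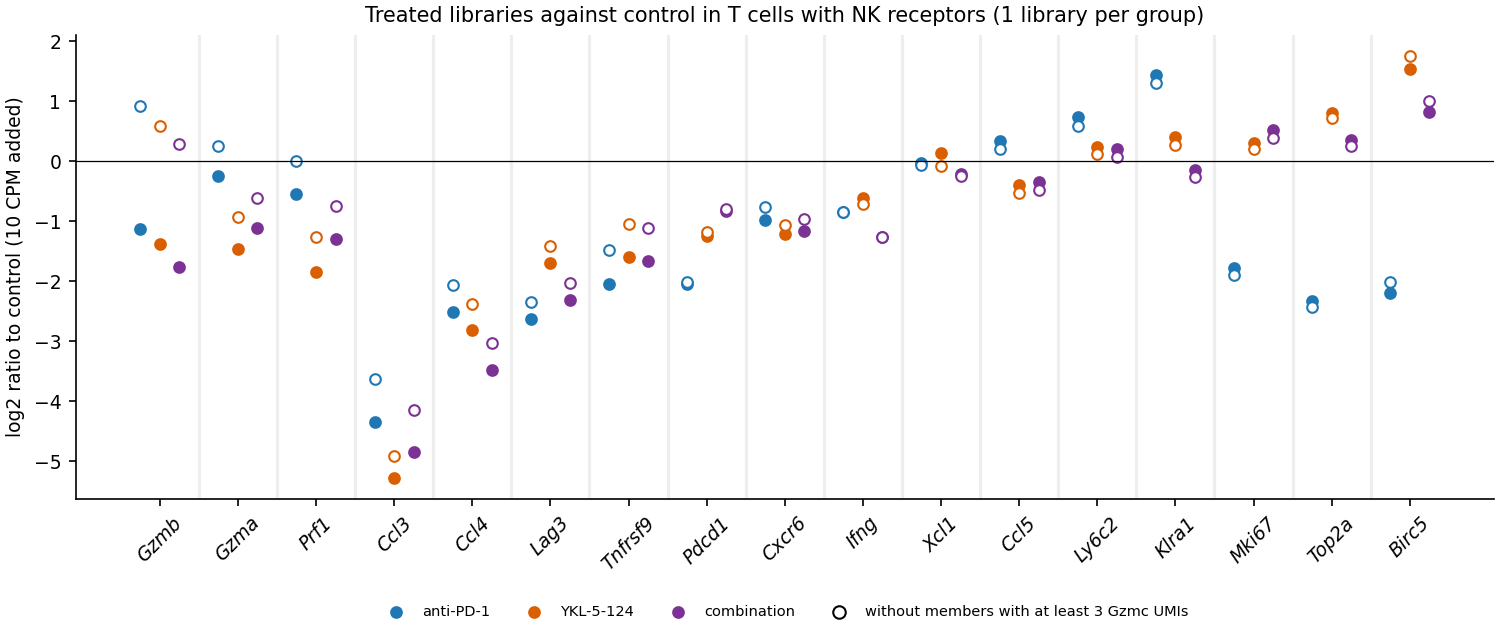
Log2 ratio to control, with 10 CPM added, of 17 genes in T cells with NK receptors in each of the 3 treated libraries, as filled points, and without cells holding at least 3 Gzmc UMIs, as open points. Gzmb moves from -1.13, -1.37 and -1.75 to 0.92, 0.59 and 0.29, whereas Ccl3, Lag3 and Pdcd1 stay below 0 and Mki67, Top2a and Birc5 stay below 0 with anti-PD-1 alone.

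Dividing cells were few with anti-PD-1. Of 27 G2 and mitosis genes 26 were lower there (median log2 ratio -1.92), while 10 and 5 were higher and none lower with YKL-5-124 and the combination. Top2a, a topoisomerase of dividing cells, stood at 224, 36.8, 398 and 289 CPM in library order. Mki67 was held by 7, 2, 10 and 13 cells, so these levels rest on very few cells. Of 22 genes of G1/S and replication 12 were higher with YKL-5-124 (median 0.69) and 7 lower with anti-PD-1. Cdk7 was found in 3 to 10 cells a library, too few to give a direction (ratios 1.14, 1.37 and 1.87, with intervals from 0.166 to 7.94).

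With anti-PD-1 some Ly49 and recirculation genes were higher. Of 17 NK receptor genes outside the rule 7 were higher and 4 lower there, against 1 and 8 with YKL-5-124. Klra1 stood at 108 CPM in control and 311 CPM with anti-PD-1 (ratio 2.88, 1.94 to 4.33), Klra9 at 97.2 and 249 CPM (2.57, 1.67 to 3.99), and Ly6c2 at 675 and 1129 CPM (1.67, 1.40 to 1.99). Klra1 is a gene of the rule, so its level also reflects which cells were chosen. Of 14 naive and central memory genes 5 were higher with anti-PD-1 and none lower, among them Klf2, a transcription factor of resting, recirculating T cells (67.5 and 131 CPM). Ccr2, a receptor for recruited monocytes and T cells, was at 59.4 and 151 CPM. With YKL-5-124 and the combination Ccr2 stood at 84.1 and 87.4 CPM and Klf2 at 71.7 and 73.9 CPM.

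The highest genes of the YKL-5-124 library were the neutrophil genes S100a8 (465 CPM against 2.7 in control), S100a9 and Retnlg, with Apoe and the MHC class II genes H2-Aa and H2-Ab1. All 6 B cell markers measured and 8 of 12 myeloid markers were higher there. In that library 6 of the 93 cells were rich in RNA of another type, against 1, 1 and 2 in the others, and 3 cells held 92.0% of its S100a8 UMIs. The B cell list stood at 1677 CPM there and 275 to 361 CPM in the others. Without such cells H2-Ab1 stood at a log2 ratio of -0.13 and S100a8 at 2.07. The part of these cells in the other genes of that library was not tested.

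In the combination library 6 of 25 interferon-stimulated genes were higher and none lower, with Ifit3 at 43.2 CPM in control and 109 CPM (ratio 2.53, 1.45 to 4.68), although 3 cells held 66.2% of its UMIs there. With anti-PD-1 and YKL-5-124, 6 and 7 of the 25 were lower. Eif3f, a subunit of a translation initiation factor, was among the highest genes, held by 24 of 109 control cells at 75.6 CPM and by 107 of 161 cells at 336 CPM (4.45, 2.98 to 6.86), and it was higher in other T cells too (log2 ratio 1.38). Prkca, a protein kinase, stood at 27.0 and 109 CPM. Ifitm1 was at 380 CPM there, but 3 cells held 88.9% of its UMIs.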

How the data were processed

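The files as deposited are matrices of raw, unnormalized UMI counts. They come from Cell Ranger after bcl2fastq, per the submitters' processing notes, and software 3.0.0 is named in the matrix headers. The human build hg19 in those notes does not match the gene IDs, which are mouse Ensembl IDs, and no annotation release is stated. Gene locations come from GENCODE M21.

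Counts of the chosen cells were summed per library and scaled to CPM. Populations were compared over the 4 libraries with edgeR 4.0.16 (R 4.3.3), using TMM scaling, its filter on low counts, library as a block, the quasi-likelihood test and Benjamini-Hochberg adjustment over all genes tested. The genes of the rule were left out of the tests, and Cd8a and Cd8b1 were left out where CD8 made the groups. The fit was tested on simulated counts. DESeq2 1.42.0 was an alternative. Treatments have 1 library each and were compared by size. Shares have exact Clopper-Pearson intervals and ratios exact conditional binomial ones, at 95%, covering counting error only. A count of 0 allows 3 counts. Doublets were scored with Scrublet in Scanpy 1.11.5 and kept in the main results. The highest scores, 0.8% for every 1000 cells of a library, were removed as an alternative. Figures used Matplotlib 3.10.9 in Python 3.11.15.

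The members and all gene lists were chosen with earlier results of these data known. Named genes are the 15 highest and 10 lowest log2 differences per test among genes past the threshold with at least 50 CPM and 1 direction in 4 of 4 libraries, the 6 highest and 6 lowest per treated library, list members with the largest changes, and a fixed set of lineage genes; the text prints part of them. A few more list members, such as Klf2, Tcf7 and Klrg1, were chosen after their values were seen.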

Additional observations from a re-analysis of the deposited data

How the results depend on the processing

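Of the refits of single tested genes, 2220 kept direction and call, 148 lost the call, 57 gained one and 12 reversed; of treatment ratios 1058 held, 154 moved and 12 reversed. The causes were not tested. Against other T cells 1071 genes were called, and 587 with DESeq2, 561 in cells of at most 5000 UMIs, 583 without shared barcodes and 584 without barcodes rich in RNA of another type (742 to 905 leaving out 1 library). Against NK cells 990 were called, and 536 with DESeq2 (693 to 950). For CD8-positive cells 236 became 557 with no filter and 135 with DESeq2 (105, without YKL-5-124, to 274). Between CD8-positive and CD8-negative cells 33 became 193 with no filter, 18 with DESeq2, 13 without the highest doublet scores, 9 with at least 3 receptor UMIs and 95 without Ncr1-positive cells (6 without the combination library, 14 without anti-PD-1, otherwise 24). A pseudocount of 50 CPM left 344, 270 and 168 genes past 1.5-fold in the 3 treated libraries, no filter gave 3048, 2639 and 2195, and 1 CPM gave 2027 for the combination. Thinned to 1000 UMIs, the combination's share ratio was 0.888 in place of 1.15.

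Reversed against other T cells were Cd8a (-0.13), Cd8b1 (-0.53, called) and Trac (-0.37, called) at 5000 UMIs at most, Cd8b1 (-0.031) without shared barcodes, Tyrobp (-0.52) without Ncr1-positive cells, and Tyrobp (-3.57) and Fcer1g (-0.26) in cells chosen for fewer than 2 Tyrobp UMIs. Among CD8-positive cells Tyrobp and Fcer1g reversed to 2.55 and 2.98 at 5000 UMIs at most, and to 2.13 and 2.95 without barcodes rich in other RNA; between CD8 groups Gzma reached -0.61 (called) at 5000 UMIs at most. With anti-PD-1, Areg reached 0.13 at 5000 UMIs at most, Apoe -0.076 and Trdc 0.20 with at least 3 receptor UMIs, and Gzmb 0.92 without Gzmc-rich cells. With YKL-5-124, H2-Aa reached -0.25 and H2-Ab1 -0.50 with few Tyrobp UMIs, H2-Ab1 -0.12 at 5000 UMIs at most and -0.13 without other-type RNA, and Gzmb 0.59. With the combination Ifitm1 reached -1.56 and H1f0 -0.11 at 5000 UMIs at most, and Gzmb 0.29. The settings on shared barcodes, other-type RNA, Tyrobp and Gzmc were chosen after seeing the data.

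Treatments could not be paired because each has 1 library, so replicate numbers pair nothing. Populations were paired within libraries: libraries were a block in every fit but 1 alternative, whose counts of calls stayed within 1.5 times of the others.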
